A study of Talpa occidentalis and Mus musculus with 35 samples.

Results

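The class II olfactory receptors of the Iberian mole, Talpa occidentalis, are described here as they stand in the gene annotation of the mole assembly talOcc3. A locus was taken as class II when its gene name, without a copy or low-confidence mark, began with OR, a family number from 1 to 14, subfamily letters and a member number. This found 848 of the 23336 gene lines (3.63%), with 242 different receptor symbols in 123 subfamilies, on 97 of 2074 scaffolds. The rule used names only, so the lengths, exon numbers, scores and positions below did not enter the choice of members, but a name goes with the reference record that a model was aligned to.

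Olfactory receptors are G protein-coupled receptors of the nasal olfactory epithelium, where a mature sensory neuron usually expresses a single receptor gene. Class II receptors, which predominate in land vertebrates, mostly bind airborne odorants, and class I receptors (families 51 to 56) are related to those of fish. The coding sequence of a receptor usually lies in a single exon, and receptor genes multiply by tandem duplication and decay into pseudogenes, so relatives tend to sit side by side. A few receptors are also known from human or mouse sperm and testis.

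The series compared gonads of moles and mice in 35 libraries of polyadenylated RNA, 19 from wild-type moles and 16 from mice. The mole groups were whole ovotestes and testes at embryonic day 15, and the ovarian part of the ovotestis, its testicular part and testes at postnatal day 7 and in adults (2 or 3 libraries each). The mouse groups, of 2 libraries each, were ovaries titled as an Fgf9 mutant and B6 wild-type ovaries at embryonic day 13.5, and CD1 wild-type ovaries and testes at embryonic day 13.5, postnatal day 7 and 10 weeks. The strain labels of the mutant and B6 libraries run from C57BL/6 to C57BL/9, 1 number each, so those groups were taken from the titles, and the labels do not say what the mutant allele is. The annotation carries no value for any library, so expression of the receptors in these groups was not analysed here and library depth is unknown. A gene annotation has no replicates: the intervals below describe counting over loci, which are related genes and not independent, and no test was made between sets of loci.

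Families 2, 4 and 5 held the most class II loci, with 137, 134 and 104. Family 8 had 82, families 7 and 14 had 80 each, family 6 had 68, family 10 had 62 and family 1 had 51. The small families were 11 with 24 loci, 9 with 12, 13 with 7, 12 with 4 and 3 with 3. The number of loci that shared a symbol also differed between families. Families 2 and 4 reached their size with 46 and 45 symbols, 2.98 loci per symbol in each. Family 7 spread its 80 loci over 7 symbols, 11.4 loci per symbol, and family 14 had 4 symbols and 20 loci per symbol. Loci that share a symbol share a name, and are not shown to be copies of one another. A name can also rest on part of a reference. Of 814 class II loci with a reference counted in bases, 620 (76.2%) were aligned to at least 850 reference bases. This share was 79.1% in class I and 55.8% among other named loci. Among families of more than 10 loci it ran from 45.5% in family 14 to 100% in family 9, and was 65.9% in family 2.

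**Figure D1:**
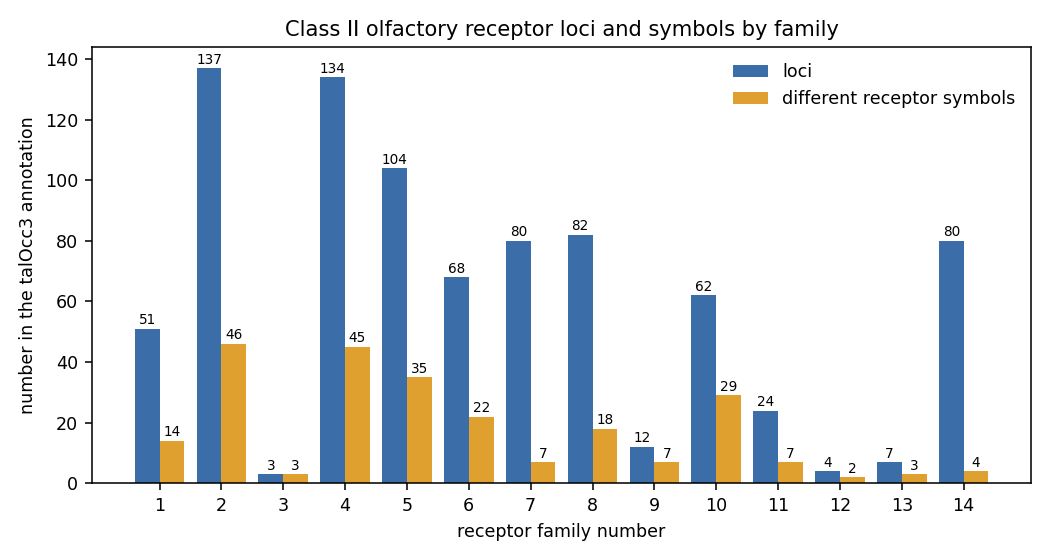
Number of class II loci (blue) and of different receptor symbols (orange) in each receptor family of the talOcc3 annotation, families 1 to 14 on the horizontal axis. Families 7 and 14 each have 80 loci, with 7 and 4 symbols, while family 2 has 137 loci and 46 symbols.

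Of the 242 symbols, 103 had a single locus and 139 had several, and those 139 accounted for 745 of the 848 loci. OR14A16 had the most with 55 loci, followed by OR7A10 with 41, OR6C2 with 34, OR8D4 with 18, OR2L13 with 17, OR2A2 with 16, OR10AG1 with 15, OR1J4 and OR7A5 with 14 each and OR7D4 with 13. These symbols were laid out in different ways. All 34 OR6C2 loci lay on scaffold 34, all 16 OR2A2 loci on scaffold 5 and all 14 OR1J4 loci on scaffold 15, each within a single cluster. OR8D4 had 14 of its loci on scaffold 14, and OR7A10 had 19 of 41 there and the rest on 4 other scaffolds. OR14A16 was scattered over 33 scaffolds, with at most 8 loci on any of them (scaffold 22). In the other families the symbol with most loci was OR4C46 in family 4 (12 loci), OR5B3 in family 5 (12), OR11L1 in family 11 (7, each on its own scaffold), OR13A1 in family 13 (5), OR9G9 in family 9 (4), OR12D2 in family 12 (3) and OR3A1 in family 3 (1 locus, as for every symbol of that family).

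A list of 5 receptors studied in sperm or testis was looked up, and each had a locus. The name alone does not show that a locus is the counterpart of that receptor. OR1D2, through which human sperm respond to a floral aldehyde, had 6 loci. The best of them by score lay on scaffold 25 from 13637598 to 13638536 on the plus strand, with 1 exon and 939 coding bases. OR4D1 had 2 loci on scaffold 51, OR10J1 had 2 on scaffold 5 and OR7A5 had 14 on 2 scaffolds. OR10J5, whose mouse counterpart is expressed in sperm, had 1 locus of 728 coding bases on scaffold 5 from 28945854 to 28946581, shorter than the 930 coding bases of the best OR4D1 and OR10J1 models. That model covered positions 1 to 738 of its reference. All 5 receptors of this list thus had a locus, and 4 had several, 25 loci together. Among them 2 OR1D2 loci and 1 each of OR7A5 and OR10J1 scored below 50% of the highest score stated for their symbol. Of all scored class II loci, 20.9% did.

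Receptors with a known human odorant had a locus in 13 of 16 cases. The pheromone-like steroid androstenone is bound by human OR7D4, which had 13 loci on 3 scaffolds, and musk by OR5AN1, which had 8 on scaffold 18. OR5A1, the receptor of the violet odorant beta-ionone, also had 8 loci on scaffold 18. The citronellal receptor OR1A1 had 6 loci, and the broadly tuned OR2W1 had 5. OR2AT4, which responds to a sandalwood odorant, and OR2J3, a receptor of grassy odour, had 2 each. Some of these loci scored below 50% of the highest score stated for their symbol, as did 20.9% of all scored class II loci. Those on the list were 4 OR7D4, 5 OR5AN1 and 2 OR5A1 loci and 1 each of OR1A1, OR2W1, OR2AT4 and OR2J3. A locus with such a name is not shown to be the counterpart of the human receptor. The aldehyde receptor OR6A2 had a single model of 981 coding bases on scaffold 18 from 40342432 to 40343412, with the highest score of any class II locus, 1302. OR10G4, a guaiacol receptor, and OR11A1 had single models of 933 and 945 coding bases, and OR8D1, the sotolone receptor, a model of 936 coding bases with a score of 207. OR11H7, which binds isovaleric acid in humans, had a model of 4 exons and 1041 coding bases. OR3A1, the helional receptor, was the shortest best model on the list with 378 coding bases, reference positions 570 to 944. No locus carried the symbols OR1A2, OR1C1 or OR1G1. Models without a symbol were not searched, so these receptors were not analysed here.

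Class II loci were gathered in clusters. With at most 500 kb allowed between neighbouring receptor loci, 719 of 848 loci lay in 29 clusters of 5 or more, 84.8% (exact 95% binomial interval 82.2 to 87.1%), and 651 lay in 19 clusters of 10 or more. Another 64 loci formed 24 groups of 2 to 4, and 65 stood alone. The 12 largest clusters held 538 loci, 63.4% of all. Scaffold 18 alone carried 232 class II loci, 27.4%.

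The largest cluster, on scaffold 18 from 9204446 to 10872240, had 137 loci of 45 symbols in 1668 kb. Its 68 family 4 loci stood together at the far end without a receptor of another family among them. The rest included 29 loci of family 5, 20 of family 8 and 14 of family 10. A second cluster on scaffold 18, from 7217860 to 8627992, had 57 loci, 42 of them of family 5. Scaffold 34 held 52 loci from 14041248 to 14579192, 47 of family 6, and scaffold 14 held 49 from 21540605 to 22499203, 44 of family 8. On scaffold 3, from 42704124 to 44218291, 34 loci of family 2 were interspersed with 12 of family 14 over 1514 kb. Scaffold 16 began with a cluster of 41 loci, from 10083 to 805625, of which 40 were of family 4. The next cluster, on scaffold 14 from 3081265 to 4294756, had 33 loci, 31 of family 7, in 2 blocks with 22 loci of other genes inside it. Family 1 led on scaffold 15 (28 loci from 47098904 to 47564775, 27 of family 1) and on scaffold 25 (22 loci from 13383992 to 13742767, 14 of family 1, 5 of family 7 and all 3 of family 3).

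Scaffold 5 carried 2 of the 12 largest clusters. One, from 28945854 to 29577715, had 13 loci each of families 6 and 10. The other, from 68105593 to 68491930, had 25 loci, 23 of family 2. The last of the 12, on scaffold 48 from 3441305 to 4009125, had 22 loci of 13 symbols in 6 families, including all 4 loci of family 12. Of the 29 clusters, 9 held a single family and 14 had at least 90% of their loci from one family. Clusters had a median of 24.5 kb per locus, from 9.98 kb in a group of 5 OR14A16 loci on scaffold 55 to 128 kb in a group of 5 family 2 loci on scaffold 21.

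**Figure D2:**
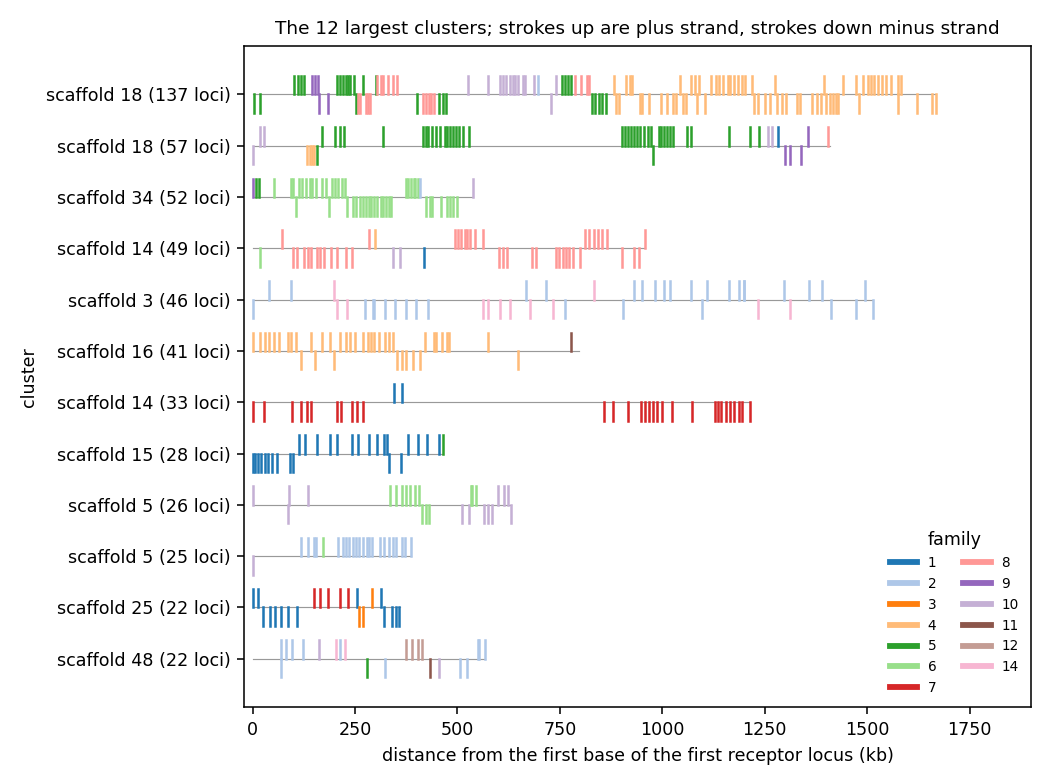
The 12 largest clusters of class II loci, each aligned at its first locus, with distance in kb on the horizontal axis. Each stroke is a locus, drawn upward for the plus strand and downward for the minus strand and coloured by family; the longest row has 137 loci over 1668 kb, with family 4 filling its right part, and the second scaffold 5 row has 24 loci on the plus strand and 1 on the minus strand.

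Most loci had another class II receptor as the next gene line. Runs without any other gene line between receptors numbered 100 of 2 or more loci, with 763 loci (89.98%), and 26 runs of 10 or more, with 489 loci. The longest run had 50 loci in 564 kb on scaffold 18, from 9305834 to 9870106, and both of its neighbours were gene lines without a symbol. The next had 43 loci on scaffold 34 (39 of family 6), starting beside NEUROD4. Runs of 30 loci followed on scaffold 14, all of family 8, ending at PANX3, and on scaffold 18 between LPXN and CTNND1. The fifth, with 28 loci on scaffold 15, started beside PTGS1. The longest stretch on a single strand had 24 loci, all on the plus strand of scaffold 5 before ARHGEF5. Among class I receptors the longest run had 15 loci.

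Neighbours were relatives. Of 663 pairs of successive class II loci, 588 were of the same family (88.7%, interval 86.0 to 91.0%), while 10.9% of all possible pairs of class II loci were. The same subfamily was found in 483 pairs (72.9%), against 2.44% of all possible pairs, and the same symbol in 328 (49.5%). Family 4 loci had the most uniform surroundings among the large families, with 105 of the 111 pairs that included one made up of family 4 alone. Families 14 and 10 had the least uniform, 29 of 45 and 37 of 56.

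Neighbours also tended to face the same way. The same strand carried 532 of the 663 class II pairs (80.2%, interval 77.0 to 83.2%), 27 of 37 class I pairs (73.0%, interval 55.9 to 86.2%) and 9349 of 18736 pairs of other named genes (49.9%, interval 49.2 to 50.6%). The class II interval lay above that of other genes and overlapped that of class I. Within class II, 418 of 483 pairs of the same subfamily shared a strand (86.5%), and 114 of 180 pairs of different subfamilies did (63.3%). By family, pairs of family 5 and family 8 shared a strand in 92.2% each and pairs of family 4 in 72.4%, and the 26 loci of the family 4 run beside PTPRJ were split evenly, 13 on each strand. Successive class II loci lay a median distance of 9.19 kb apart (interval 8.57 to 10.2 kb), against 6.80 kb (interval 6.52 to 8.72 kb) in class I and 17.1 kb between other named genes. Family 7 pairs were the widest of the large families at 17.6 kb and family 6 the closest at 6.95 kb.

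Class II models were short and mostly unspliced. A single coding exon was annotated in 686 of 848 loci (80.9%, interval 78.1 to 83.5%), against 31 of 45 class I loci (68.9%, interval 53.4 to 81.8%) and 17.4% of other named loci. Family 4 had 125 of 134 loci in a single exon, family 8 had 76 of 82 and family 11 had 22 of 24. Family 7 had the lowest share among families of more than 10 loci, 45 of 80 (56.3%, interval 44.7 to 67.3%), with 18 of 41 OR7A10 loci in a single exon. In mouse GENCODE M21, 1097 of 1135 protein-coding receptor genes of both classes had a coding sequence in a single exon (96.7%, interval 95.4 to 97.6%). The mole loci were not limited to a coding type in this way. The mole share differed with the label of the model: 76.8% of the 577 class II models labelled ALN had a single exon, and 90.3% of the 269 labelled exonerate. EVM, the label of 64.2% of all gene lines, stood on 2 class II loci, both OR10AG1. The compared sets differed in label: 39 of 45 class I loci were labelled exonerate, and 14772 of 20600 other named loci EVM. The part of the label in their exon shares was not tested.

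The median coding length was 936 bases (interval 936 to 939), and the quartiles were 930 and 951. Class I models had a median of 969 bases and other named genes 1113. Mouse protein-coding receptors had a median of 939 bases, with quartiles 933 and 951. The coding lines of that annotation leave out the stop codon, and no source used here says whether the mole lines do. Medians of the class II families with more than 10 loci ran from 929 bases in family 14 to 951 in family 6. A length from 900 to below 1000 coding bases was annotated in 695 of the 848 class II loci (82.0%), in 30 of 45 class I loci (66.7%) and in 5.01% of other named loci. Models of at least 900 coding bases in whole codons happened to number 695 as well (82.0%, interval 79.2 to 84.5%), and 649 loci met both conditions. Such models were 38 of 45 class I loci (84.4%, interval 70.5 to 93.5%) and 55.7% of other named loci. This share was 95.6% in family 6, 92.2% in family 1, 90.3% in family 4 and 89.4% in family 5, and lowest among the larger families in family 14 with 39 of 80 (48.8%). A model of this length is not shown to be an intact receptor, because no sequence of the mole was read. Fewer than 600 coding bases were annotated in 54 class II loci (6.37%), 26 of them of family 14. Models this short were 1 of 45 class I loci and 4807 of 20600 other named loci. In the mouse 1 of the 1135 protein-coding receptor genes was this short, but the mole loci were not limited to a coding type.

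**Figure D3:**
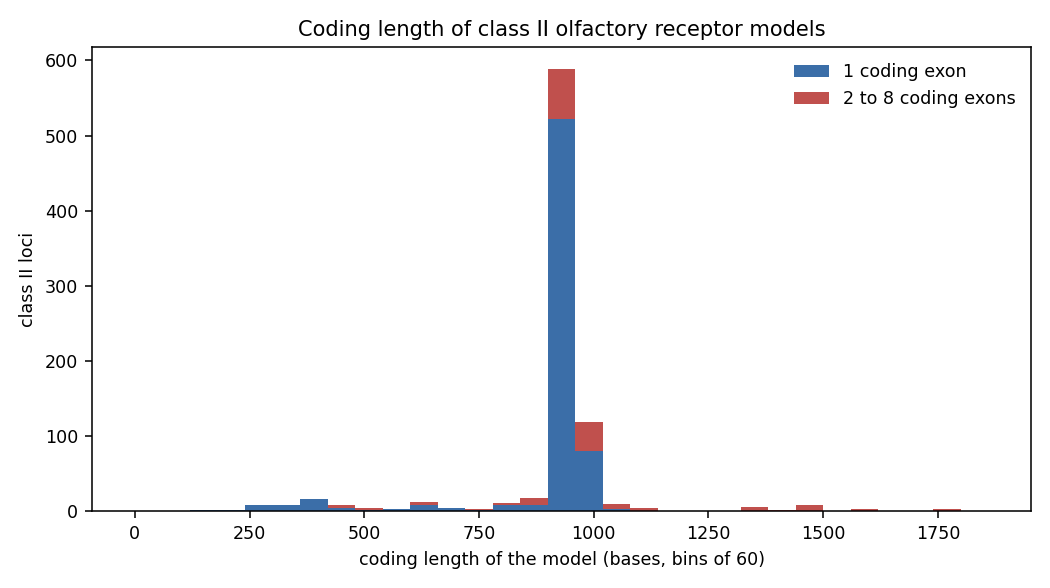
Histogram of the coding length of the 848 class II models in bins of 60 bases, stacked by exon number (blue, 1 coding exon; red, 2 to 8). The 2 tall bars start at 900 bases and include the 695 loci from 900 to below 1000 bases, and the longest models, up to 1752 bases, have several exons.

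The 162 models with several exons usually still held a receptor-sized piece. Their longest coding part had a median of 922 bases and 93.1% of the coding length, and it was at least 900 bases in 101 of them. The largest intron of a model was 5.48 kb long at the median (interval 3.78 to 7.04 kb), exceeded 10 kb in 45 models and reached 195 kb. Models with 2 exons numbered 111, with 3 exons 32, and with 4 or more 19. The most exons, 8 each, were annotated in an OR13A1 locus on scaffold 11 from 63565019 to 63583200 (1608 coding bases), an OR14A16 locus on scaffold 22 from 619919 to 669716 (1083 bases) and an OR14C36 locus on scaffold 3 from 43269639 to 43289727 (877 bases). In that OR14C36 model the longest part had 195 bases.

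A group of long models came from the OR1J subfamily. On scaffold 15, 10 loci named OR1J4 or OR1J2 had 1431 to 1470 coding bases, and the other 10 loci of these symbols had 930 to 957. In the long models the longest part, of 934 to 963 bases, was close to the size of a whole receptor, and the remaining parts added 489 to 513 bases. The aligned stretch was likewise 488 to 520 bases longer in the mole model than in the reference. The models over 1400 coding bases numbered 16 in all class II, so these 10 were most of them; the OR1J group was singled out after its values were seen. The longest of all were OR2W1 on scaffold 48 and OR6C65 on scaffold 34 with 1752 coding bases each and an OR2C1 locus on scaffold 48 with 1743. The shortest were an OR2H1 locus on scaffold 48 with 90 bases, an OR4D10 locus on scaffold 18 with 126 and an OR6P1 locus on scaffold 5 with 147.

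Each transcript line carries a deposited score beside the reference interval it was aligned to, and no source used here says what the score counts. Class II loci scored from 100 to 1302. As a percent of the highest score stated for the symbol, the median over 847 scored loci was 88.3% (interval 85.7 to 90.8%), against 100% in class I and among other named genes, where most symbols have a single locus. In 177 loci (20.9%) it was below 50%, against 5 of 45 class I loci (11.1%) and 2018 of 20581 scored other named loci (9.81%). The percent is taken from the best score of a symbol, so a family median depends on the number of loci per symbol. That number was 2.14 in family 10 and 20 in family 14. Families 10 (99.4%), 4 (95.6%) and 2 (91.9%) had high medians among the larger ones. Family 6 had 59.2% (interval 54.0 to 90.02%), family 14 had 54.7% (interval 40.9 to 67.9%) and family 11 had 64.9%, and OR6C2, the largest symbol of family 6, had 53.5%.

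**Figure D4:**
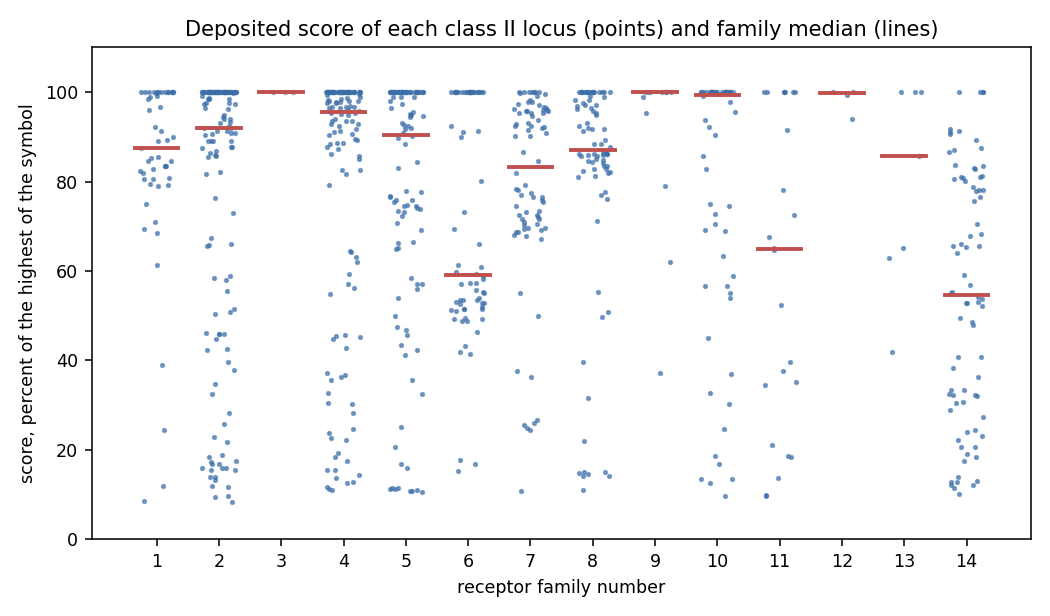
Deposited score of each class II locus as a percent of the highest score stated for its symbol (blue points), by family, with the family median as a red line. Families 6 and 14 have medians of 59.2% and 54.7%, and each family with more than 7 loci spreads from a locus below 50% to 100%.

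The percent cannot compare symbols, so the score was also taken per aligned base. Over 814 class II loci the median was 0.860 per base (interval 0.812 to 0.891), against 1.04 in class I and 1.23 among other named genes. It was 1.08 in family 10, 1.02 in family 4 and 0.916 in family 2, and 0.735 in family 6 and 0.655 (interval 0.622 to 0.677) in family 14. Family 14 thus had the lowest value among families of more than 10 loci, and the best of its 55 OR14A16 models scored 734. Left out were 33 loci whose reference interval appears to be counted in amino acids, since the model's aligned stretch was 2.93 to 3.03 times as long as the reference's, against at most 1.97 times in the other scored loci. The 33 loci had a median coding length of 942 bases but a median score of 338. Loci of both kinds, with a highest score for each, were found in 15 symbols, OR10AG1 and OR5A1 among them. The lowest and highest class II scores and the best model of a symbol were taken over both kinds. Scores were otherwise not compared between the 2 kinds. The percents pool both, and without the 33 loci the class II median was 89.0% (interval 85.9 to 91.3%).

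Family 14 was spread over 38 scaffolds. Of its 80 loci 37 (46.3%) were on scaffolds whose last annotated base was below 100 kb, and all 37 were named OR14A16, on 30 such scaffolds. Scaffolds of that size held 82 of all 848 class II loci (9.67%), 45 of them from the other families. They held 0 of 45 class I loci and 6.73% of other named loci. Family 14 models were shorter on short scaffolds, where these loci had a median of 651 coding bases (interval 384 to 927, 37 loci on scaffolds under 100 kb), against 933 bases (interval 933 to 942, 34 loci) on scaffolds of 1000 kb or more. In the other families the medians were 933 bases (interval 853 to 936, 45 loci) and 939 bases (interval 936 to 939, 721 loci). Models of at least 900 bases in whole codons made up 10 of 37 family 14 loci on short and 24 of 34 on large scaffolds, and 20 of 45 and 635 of 721 loci of the other families. The family 14 loci on large scaffolds were mostly of its other symbols, and the 13 OR14A16 loci there had a median of 936 coding bases (interval 378 to 968), with 5 of 13 models of at least 900 bases in whole codons. The part of scaffold length in the short models was not tested.

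The position of the clusters was compared with the mouse through flanking genes named once in both annotations (mouse GRCm38, GENCODE M21). Of the 29 clusters 23 had such a gene on each side, and in 15 of these the flanks lay on the same mouse chromosome. In 7 intervals no other shared gene stood between the flanks in the mouse. These 7 held 260 class II loci in the mole, against 467 mouse receptor loci, 370 of them protein-coding, and spanned 5154 kb in the mole against 11210 kb in the mouse. Mouse receptor names do not separate the classes, and no class I locus lay in any of the mole intervals.

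The largest shared interval ran between LRRC55 and PTPRJ. It had 137 class II loci in 1759 kb in the mole, against 287 receptor loci (227 protein-coding) in 5233 kb on mouse chromosome 2. Between NEUROD4 and RDH5 there were 52 loci in the mole and 67 in the mouse (60 protein-coding), and between PTGS1 and RC3H2 28 in the mole and 37 in the mouse (28 protein-coding). RAP1GAP2 and SPATA22 enclosed 22 loci in the mole and 44 in the mouse (30 protein-coding). CLDND1 and GABRR3 enclosed 9 in the mole and 32 in the mouse (25 protein-coding). Against all mouse receptor loci, the mole had fewer in each of these 5 intervals. Against the protein-coding ones alone, the numbers were equal between PTGS1 and RC3H2, 28 each, and lower in the mole in the rest. Mole gene lines without a symbol were not counted, 14 of them in the largest cluster. Nor were the 82 class II loci on scaffolds whose last annotated base was below 100 kb. Their part in the lower mole counts was not tested. In the other 2 intervals the order was turned round: NAALADL2 and TBL1XR1 enclosed 7 loci of family 7 in the mole and 0 receptor loci on mouse chromosome 3, and NBDY and UBQLN2 enclosed 5 OR14A16 loci in the mole and 0 on mouse chromosome X. Models of at least 900 coding bases in whole codons were 4 of those 7 loci and 1 of those 5.

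A further 3 intervals held 2 or 3 other shared genes, the same ones in the mole and the mouse. SCN3B and PANX3 enclosed 49 loci in the mole and 123 in the mouse (95 protein-coding). EPHA1 and ARHGEF5 enclosed 25 in the mole and 27 in the mouse, of which 20 were protein-coding, fewer than the mole loci. FLT4 and TRIM7 enclosed 5 in the mole and 19 in the mouse, all protein-coding. METTL17 and ANG enclosed 20 class II loci in the mole and 0 receptors in the mouse, but the mole interval held 10 other shared genes, 0 of which lay in the mouse interval, so these are different stretches and their counts were not compared. The remaining 4 intervals on the same mouse chromosome held 11 to 226 other shared genes there and were not compared; the widest gap by count, 19 mole loci against 259 in the mouse between ZDHHC13 and NLRP10, belonged to flanks 60090 kb apart in the mouse.

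**Figure D5:**
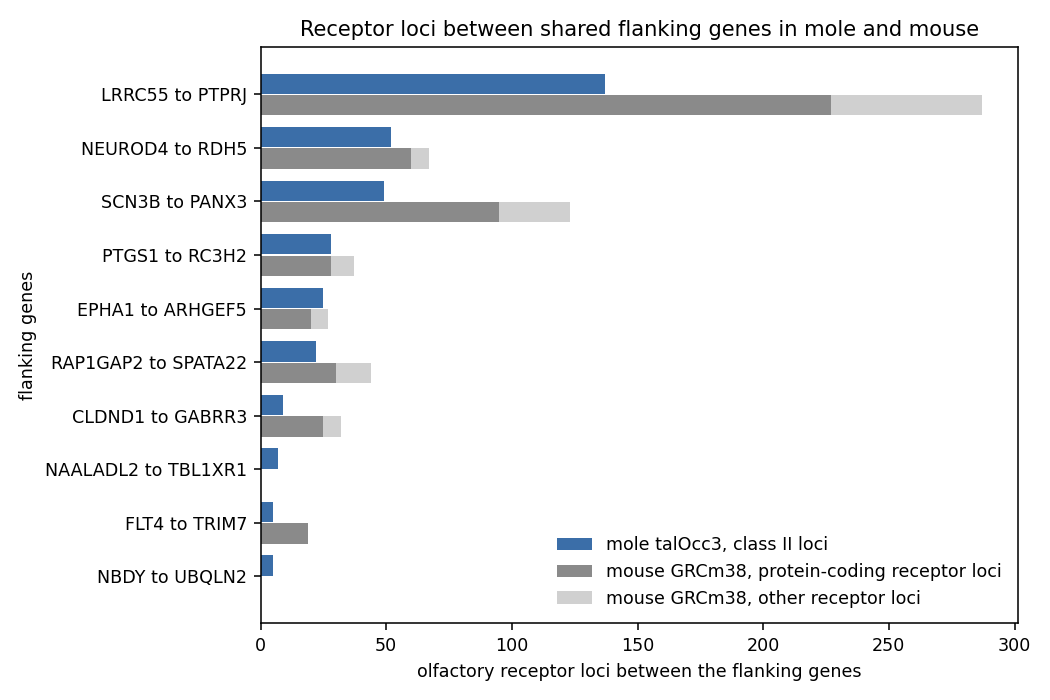
Olfactory receptor loci between the same flanking genes in the mole (blue, class II loci) and in the mouse (grey, protein-coding; light grey, other receptor loci), for the 10 intervals with at most 3 other shared genes in the mouse, the same ones as in the mole. LRRC55 to PTPRJ has 137 loci in the mole and 287 in the mouse; the intervals at TBL1XR1 and UBQLN2 have mole loci and no mouse receptor.

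The same flanks were looked up in the later mole assembly MPIMG_talOcc4v2.1, which was used only for names and for the order of genes. Its table gives receptors no family name, so loci named by a LOC number were counted. Between LRRC55 and PTPRJ talOcc3 had 137 class II loci, against 191 protein-coding and 18 pseudogene LOC loci and no named coding gene in the later assembly. Between SCN3B and PANX3 talOcc3 had 49, against 71 protein-coding and 6 pseudogene LOC loci, and between NEUROD4 and RDH5 it had 52, against 68 and 1. The numbers lay closer in some of the smaller intervals. Between RAP1GAP2 and SPATA22 talOcc3 had 22 class II loci, against 24 protein-coding and 6 pseudogene LOC loci, and between EPHA1 and ARHGEF5 25, against 26 and 6. Between CLDND1 and GABRR3 talOcc3 had 9, against 13 and 2, and between FLT4 and TRIM7 5, against 10 and 3. Between NAALADL2 and TBL1XR1 talOcc3 had 7, against 0 protein-coding and 3 pseudogene LOC loci. No count was available in the later assembly between NBDY and UBQLN2. METTL17 and ANG enclosed 20 class II loci and 10 other shared genes in talOcc3. In the later assembly they enclosed 17 protein-coding and 1 pseudogene LOC loci but only 2 named coding genes. The stretches thus differ, and their counts were not compared. PTGS1 and RC3H2, with 28 class II loci between them in talOcc3, enclosed 45 protein-coding and 57 pseudogene LOC loci and 158 named coding genes in the later assembly, so that interval was not compared. Whether the LOC loci are receptors was not tested.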

How the data were processed

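The deposited file is a gene annotation of the mole assembly talOcc3 with models labelled EVM, exonerate or ALN, per the file; no source used here tells how they were made. STAR 2.6.1d and mm9 appear in the submitters' processing notes, without a role. Start and end are 1-based positions. Transcript lines carry a score as deposited by the authors, with the interval of the reference and the highest score of the symbol. The number of unused columns of per-sample values was 0. Members, lists and alternatives were chosen with earlier results of these data known.

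Transcripts and coding parts were matched to gene lines by scaffold, strand and containment, because 70 gene names (14 of class II) stand on more than 1 line, with Python 3.11.15, numpy 2.4.6, pandas 2.3.3 and scipy 1.17.1. Shares have exact binomial and medians order-statistic 95% intervals. Clusters allowed 500 kb between loci. Mouse genes were those of GENCODE M21 (GRCm38); no coordinate was converted. The steps were tested on simulated data. Genes were named by rule: the 10 symbols with most loci, the 12 largest clusters, the 5 longest runs, the leading symbol per family, the 3 loci with most exons, the 3 longest and 3 shortest, 2 lists, and the 3 intervals each with most more and most fewer receptor loci than the mouse. The other intervals, the OR1J group and the genes inside clusters were chosen after their values were seen.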

Additional observations from a re-analysis of the deposited data

How the results depend on the processing

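No paired analysis was possible because the annotation carries no value per library. Of 50 values recomputed under 14 alternatives, 44 stayed within their interval or within 1.5 times the count and 6 did not. The share of models of at least 900 coding bases in whole codons was 87.3% on scaffolds annotated to 1000000 or beyond and 88.1% among loci of at least 50% of the highest score. The longest run grew to 78 loci when 1 other gene line was allowed and to 137 loci, the whole cluster between LRRC55 and PTPRJ, when lines without a symbol were ignored. The single-exon share was 90.3% among exonerate models and 76.8% among ALN models, alternatives added after seeing the data. Leaving out low-confidence names changed no value, because no class II locus carried that mark, nor did taking mouse flanks only from scaffolds annotated to 1000000 or beyond. Of 56 family counts 3 moved: family 14 fell to 34 loci on scaffolds annotated to 1000000 or beyond and to 46 at the score limit, and family 11 to 14 there. Depth entered no value.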

Other observations

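Other genes stood inside the clusters of 5 or more receptors at 154 loci, 39 of them without a symbol, while 7 of the 29 clusters had none. The 57-locus cluster of scaffold 18 enclosed 17, including 5 loci named GLYAT, a glycine conjugating enzyme, and the macrophage gene MPEG1. The 10 receptors of family 2 near the start of scaffold 48 stood in runs of 6 and 4, with 12 other loci in a block between the runs, among them the zinc finger genes ZSCAN12, ZSCAN23 and ZNF165 and the glutathione peroxidases GPX5 and GPX6, and the cluster farther along that scaffold held 4 loci named UBD, a ubiquitin-like modifier. On scaffold 6 the 20-locus cluster led by family 11 included RNASE10 and RNASE12, of the ribonuclease family, and the DNA repair gene APEX1. The largest cluster, with 137 receptors, contained 14 other gene lines and none of them had a symbol.

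Human receptor names that end in P, the mark of a human pseudogene, stood on 10 class II loci of 5 symbols. Of those models 8 had at least 900 coding bases in whole codons, near the share over all class II loci (695 of 848, 82.0%).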
